A study of Mus musculus with 2 samples.

Results

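The genes of purine breakdown, with urate oxidase (*Uox*) at their head, were compared between the skin of newborn *Pnpla1*-/- mice and that of *Pnpla1*+/+ mice. The 8 genes were *Uox*, *Xdh*, *Pnp*, *Ada*, *Gda*, *Urah*, *Hprt* and *Aprt*, out of 30133 genes on the array. They were chosen by name with the values of these arrays known: *Uox* had the difference of rank 4 among 16711 named genes measured on both arrays, and the other genes act in the same pathway. A search by gene name in the deposited files found 7 of them with 11 probes. *Urah* is named 1190003J15Rik there and was found through its RefSeq accession, which brought the count to 8 genes and 13 probes. Since the knockout against wild-type difference itself was used in the choice, the values below are a description.

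PNPLA1 belongs to the patatin-like phospholipase family and takes part in making the acylceramides of the epidermal barrier. All mice were C57BL/6N and were sampled at postnatal day 0 (P0). *Pnpla1*-/- mice were homozygous for the allele *Pnpla1*tm1a(KOMP)Wtsi, from which flippase had removed the *IRES-LacZ* and *Neo* cassettes, and *Pnpla1*+/+ mice were wild-type littermates. The allele was carried in every tissue, not in skin alone. Total skin RNA of 6 animals was pooled for each genotype and hybridized to 1 array with 1 dye (Cy3). Skin is the tissue in the sample labels, and epidermis is named in the design text. Each genotype has only 1 array, so the genotypes were not tested against each other, and the 6 animals behind each pool give no spread. The *Pnpla1*+/+ and *Pnpla1*-/- arrays each carried 43020 spots other than controls, of which 71.7% and 73.3% were well above background and 0 were saturated.

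Purine nucleotides that a cell does not reuse are broken down in a fixed order. Adenosine deaminase (ADA) turns adenosine into inosine. Purine nucleoside phosphorylase (PNP) releases hypoxanthine and guanine from their nucleosides, and guanine deaminase (GDA) turns guanine into xanthine. Xanthine dehydrogenase (XDH), an enzyme that carries a molybdenum cofactor, oxidizes hypoxanthine to xanthine and xanthine to urate. In mice, urate oxidase (UOX), a peroxisomal enzyme best known from the liver, oxidizes urate to 5-hydroxyisourate with release of hydrogen peroxide, and 5-hydroxyisourate hydrolase (URAH) and then URAD lead on to allantoin. Humans lack a working urate oxidase, so that urate is their end product. Hypoxanthine, guanine and adenine can instead be salvaged to nucleotides by HPRT and APRT.

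*Uox* was read by 2 probes of 60 bases, both on the plus strand of chromosome 3 in mm9. Probe 1 lay at chr3:146294204-146294263 and began at base 1599 of its transcript. Probe 2 lay at chr3:146290788-146290847 and began at base 831. Probe 2 is shown because it is a second, separate stretch of the *Uox* transcript, and it can be read through in 1 of 3 forward frames without a stop codon, whereas probe 1 has a stop codon in each frame. It is printed in lower case, with nothing marked.
Uox probe 2: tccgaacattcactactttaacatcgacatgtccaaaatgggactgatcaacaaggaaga
No probe of the 8 genes or of *Pnpla1* shared a run of 20 bases with any other probe on the array.

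The 250 bases before the *Uox* start in RefSeq (GRCm38.p6, chr3:146596899-146597148, plus strand) are shown with the match to a C/EBP motif in capitals. The same stretch of *Gda* (GRCm38.p6, chr19:21472662-21472911, minus strand), a gene that also had a higher signal in *Pnpla1*-/- skin, held none of the motifs searched and is given for comparison.
Uox promoter: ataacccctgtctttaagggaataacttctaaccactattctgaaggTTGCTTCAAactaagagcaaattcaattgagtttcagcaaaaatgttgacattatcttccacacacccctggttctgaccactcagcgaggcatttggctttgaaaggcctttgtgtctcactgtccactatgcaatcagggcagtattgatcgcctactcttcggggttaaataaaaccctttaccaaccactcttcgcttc
Gda promoter: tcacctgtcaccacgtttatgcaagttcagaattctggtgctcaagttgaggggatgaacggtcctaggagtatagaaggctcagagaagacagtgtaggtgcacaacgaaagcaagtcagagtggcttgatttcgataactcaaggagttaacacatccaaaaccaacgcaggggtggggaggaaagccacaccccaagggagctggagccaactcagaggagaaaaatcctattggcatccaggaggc
Motifs were searched on both strands from 250 bases before to 50 bases after the start in 32851 mouse promoters, and matches of different motifs could overlap. TATAAA (the TATA box) was held by 13.6% of them, TTCNNNGAA (STAT) by 8.30%, TGANTCA (AP-1) by 7.81%, the NF-kappaB motif by 4.59%, TTGCNNCAA (C/EBP) by 2.08% and the direct repeat bound by nuclear receptors by 0.0396%. The *Uox* match began at position -203. *Urah* had TTCCCAGAA, a STAT match, at -82 or -223 of its 2 overlapping promoters. *Ada* had TTCCGGGAA (STAT) at -90 and GGGAGCTTCC (NF-kappaB) at -137, and *Aprt* had TGACTCA (AP-1) at -111. The promoters of *Pnp*, *Gda* and *Hprt* held none of these letters, and *Xdh* was not in the promoter table. The matches describe sequence and are no evidence of binding.

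The deletion was checked first. The *Pnpla1* probe (chr17:29026908-29026967 in mm9) read 579 ± 58.2 intensity units in *Pnpla1*+/+ skin and 114 ± 12.6 in *Pnpla1*-/- skin, where ± is the error that the scanner software gave for the spot and not a spread between mice. After division by the 75th percentile of each array, which was 2108 and 1734, the signal was lower by 2.07 on the log2 scale in the knockout. The probe stayed well above background there, and whether it lies in the deleted part of the gene is not given in the sources used here. In knockout skin the study itself found no *Pnpla1* mRNA by quantitative PCR and no PNPLA1 protein by immunohistochemistry.

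*Uox* had by far the widest gap between the pools among the 8 genes. Probe 1 read 30.3 ± 5.92 in *Pnpla1*+/+ skin and 20768 ± 2077 in *Pnpla1*-/- skin. Relative to the 75th percentile these are signals of 0.0144 and 11.98, a log2 difference of 9.70 or 833-fold. The wild-type signal of probe 1 was just past the lowest intensity that counted as well above background on that array, 23.9. Probe 2 read 6.17 ± 6.14 in *Pnpla1*+/+ skin, which was not well above background, and 4505 ± 451 in *Pnpla1*-/- skin. Its difference is therefore a bound, taken against the lowest signal above background: at least 229-fold higher in the knockout, or at least 7.84 on the log2 scale. The bound of probe 2 was 5.77 with normexp background correction and from 7.41 to 7.84 under the other scalings tried. Neither *Uox* spot was flagged as an outlier or as saturated on either array. Both probes thus had a signal at or near background in wild-type newborn skin and a bright signal in the knockout. In RNA of whole skin, more cells that express a gene and more RNA per cell cannot be told apart.

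The size of a technical error can be judged from repeated spots. Over 385 probes with at least 8 spots on each array, the median SD of a difference between the arrays was 0.09 on the log2 scale. This covers the noise between spots within these 2 arrays only, and not a shift shared by all spots of an array. The 8 spike-in probes, for example, differed by 0.43 on average between the scaled arrays. Among 5112 genes with several measured probes, the differences given by probes of the same gene spanned 0.18 at the median.

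**Figure D1:**
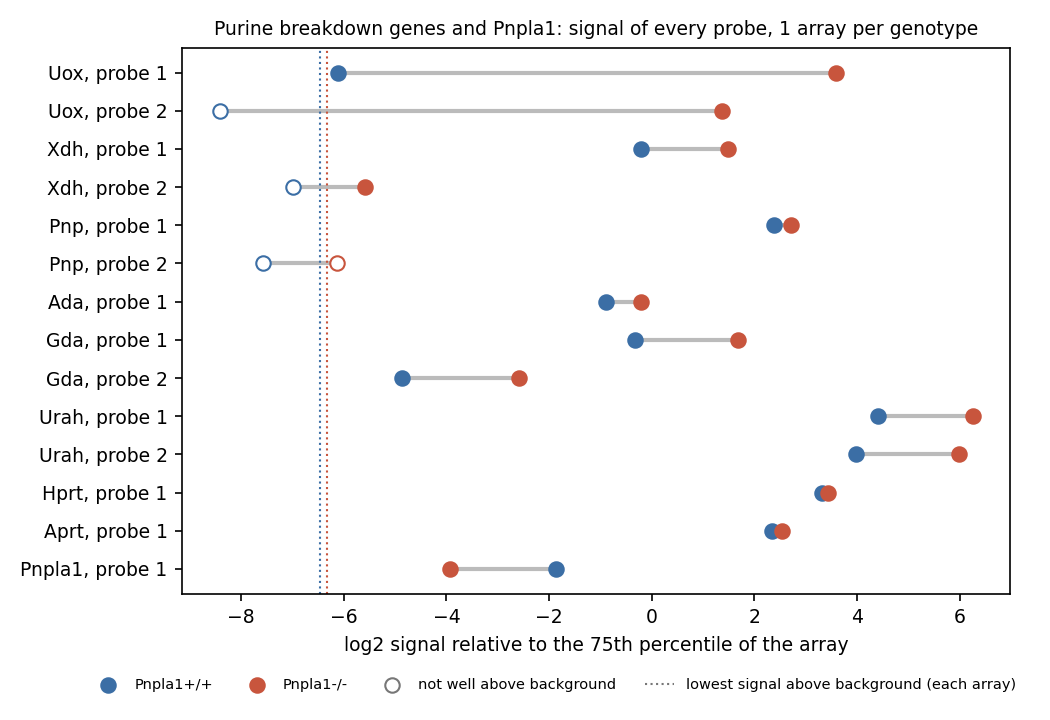
Signal of every probe of the 8 purine genes and of *Pnpla1* on the *Pnpla1*+/+ array (blue) and the *Pnpla1*-/- array (red), as log2 of the intensity over the array's 75th percentile; open circles were not well above background, and dotted lines mark the lowest signal above background on each array. *Uox* probe 1 ran from -6.12 to 3.58, whereas the points of *Hprt* and *Aprt* nearly coincide.

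Upstream of *Uox*, *Xdh* and *Gda* also had brighter signals in *Pnpla1*-/- skin. *Xdh* probe 1 (chr17:74233511-74233570, minus strand) read 1824 ± 182 in *Pnpla1*+/+ skin and 4846 ± 485 in the knockout. The relative signal went from 0.865 to 2.79, a log2 difference of 1.69 or 3.23-fold. *Xdh* probe 2 (chr17:74283658-74283717) was dim, with 16.5 in the wild type, below the limit, and 36.2 in the knockout, a bound of at least 1.84-fold. The 2 *Xdh* probes pointed the same way, but the bound of probe 2 was below 2-fold. On the log2 scale that bound was 0.88, and it was 0.41 with normexp background correction and 0.45 with spike-in centring. *Xdh* lies on the chromosome that carries *Pnpla1*, at a distance of 45.2 Mb between their probes.

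Guanine deaminase gave like values from both of its probes. *Gda* probe 1 (chr19:21465823-21465882, minus strand) read 1673 ± 167 in *Pnpla1*+/+ skin and 5575 ± 558 in the knockout, a log2 difference of 2.02 or 4.05-fold. *Gda* probe 2 (chr19:21469275-21469334) read 72.0 ± 9.16 and 289 ± 29.4, a log2 difference of 2.29 or 4.89-fold. The differences of the 2 *Gda* probes were 0.27 apart.

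Downstream of *Uox*, *Urah* was bright on both arrays and brighter in the knockout. *Urah* probe 1 (chr7:148023789-148023848, plus strand) read 44762 ± 4476 in *Pnpla1*+/+ skin and 132229 ± 13223 in the knockout. Its log2 difference was 1.84, or 3.59-fold. *Urah* probe 2 (chr7:148023667-148023726) read 33181 ± 3318 and 109477 ± 10948, a log2 difference of 2.004 or 4.01-fold. *Urad*, which acts after *Urah*, read 23.5 and 20.6 and passed the background limit on neither array. *Allc*, the allantoicase gene, read 8.79 and 8.96 and was likewise not above background.

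The first steps of breakdown and the salvage enzymes differed less. *Ada* (chr2:163552581-163552640, minus strand) read 1134 ± 114 in *Pnpla1*+/+ skin and 1496 ± 150 in the knockout, a log2 difference of 0.68 or 1.60-fold. *Pnp* probe 1 (chr14:51571344-51571403, plus strand) read 10983 ± 1098 and 11335 ± 1134, a log2 difference of 0.33. *Pnp* probe 2 (chr14:51573028-51573087) read 11.02 and 24.7, was flagged as not well above background on both arrays and gave no value. *Pnp2*, a close copy of *Pnp*, so that signals of the pair are uncertain where transcripts cross-hybridize, read 151 and 203, a log2 difference of 0.71. *Ada* was the nearest of the 8 genes below a 2-fold difference, and *Xdh* the nearest above it.

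*Hprt* and *Aprt* were the nearest to 0. *Aprt* (chr8:125098641-125098700, minus strand) read 10725 ± 1073 in *Pnpla1*+/+ skin and 10119 ± 1012 in the knockout, a log2 difference of 0.20. *Hprt*, which the study also used as a reference gene for quantitative PCR, had 10 spots of its probe (chrX:50374757-50374816, plus strand). Its spots in *Pnpla1*+/+ skin ran from 20108 through a median of 21034 to 21668, with a mean of 20926 ± 532 (SD, n = 10 spots). In *Pnpla1*-/- skin they ran from 18091 through 18851 to 19835, with a mean of 18863 ± 584 (SD, n = 10 spots). As deposited, every knockout spot was below every wild-type spot. After scaling, the log2 difference was 0.13 ± 0.02 (SD over spots) and positive at 10 of 10 positions. The sign of *Hprt* and *Aprt* therefore rested on the scaling: without it they differed by -0.15 and -0.08, and with the arrays centred on the spike-in controls by -0.30 and -0.23. *Pnp* turned negative only with the spike-in controls, at -0.10.

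**Figure D2:**
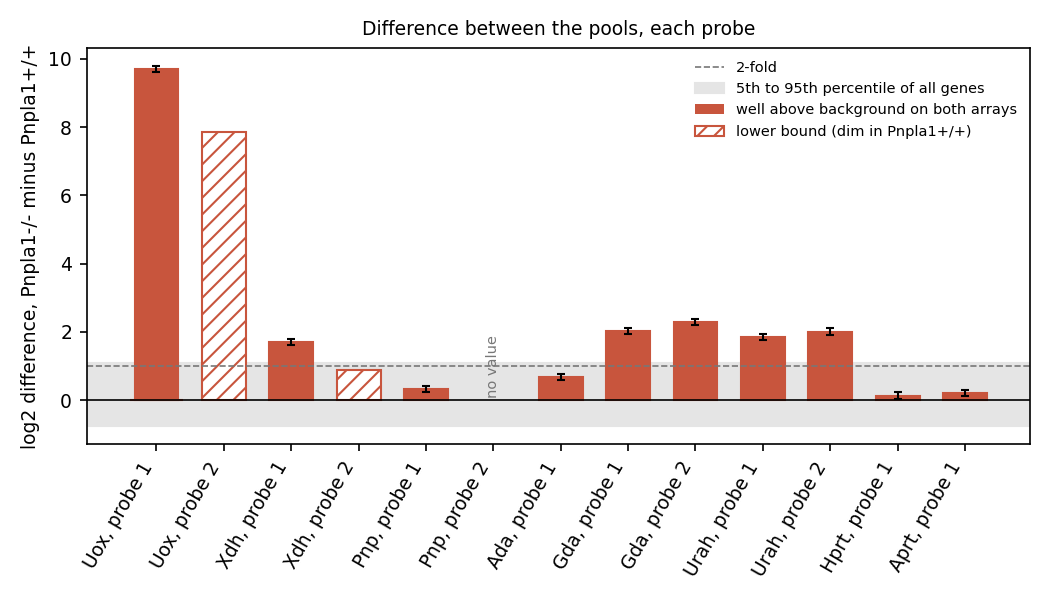
Log2 difference, *Pnpla1*-/- minus *Pnpla1*+/+, of the 12 probes of the 8 genes that gave a value, with the place of *Pnp* probe 2 left empty. Hatched bars are lower bounds, whiskers are the technical SD of 0.09 from repeated spots, and the dashed line marks 2-fold. The grey band, labelled as all genes, is the 5th to 95th percentile of the genes well above background on both arrays. Both probes of *Uox*, *Gda* and *Urah* and probe 1 of *Xdh* lie above the band. Inside it lie *Pnp*, *Ada*, *Hprt*, *Aprt* and the bound of *Xdh* probe 2.

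Of the 8 genes, 4 were at least 2-fold higher in *Pnpla1*-/- skin (*Uox*, *Gda*, *Urah* and *Xdh*), 0 were at least 2-fold lower and 4 were within 2-fold. All 8 were well above background on both arrays by their brightest probe, and their median log2 difference was 1.19. Among the 22373 genes with a difference or a bound, 6.70% were past 2-fold in the higher and 3.04% in the lower direction, and the median was 0.00. Shares of all genes given below refer to these 22373. Over the 20678 genes well above background on both arrays, the 5th and 95th percentiles were -0.76 and 1.08. Nothing is read from the count of 4, since the genes were chosen with this contrast known. The 4 genes past 2-fold stayed past it under each of 10 other scalings, corrections and filters. *Uox* ran from 8.15 with normexp background correction, which adds an offset of 50 to every spot, to 9.70. *Xdh* ran from 1.26 to 1.69, *Gda* from 1.59 to 2.15 and *Urah* from 1.41 to 1.92.

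**Figure D3:**
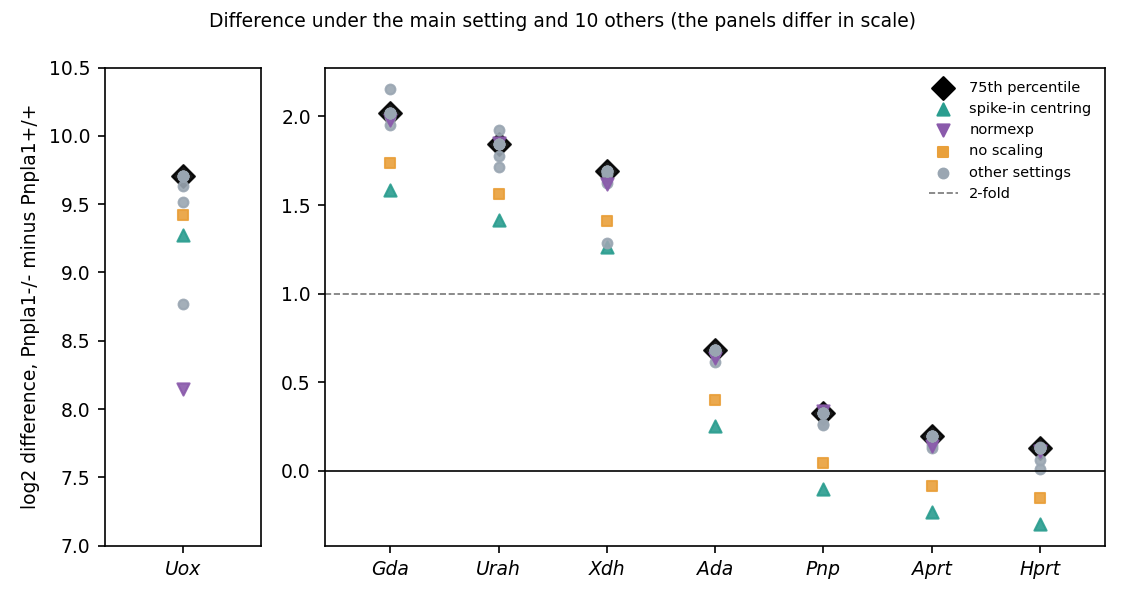
Log2 difference, *Pnpla1*-/- minus *Pnpla1*+/+, of each gene under the main scaling (black diamonds) and 10 other settings, with *Uox* in a panel of its own scale. Every point of *Uox*, *Gda*, *Urah* and *Xdh* lies above the 2-fold line, and the points of *Hprt* and *Aprt* without scaling or with spike-in centring lie below 0.

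Most genes of the other purine lists lay within 2-fold. So did most of the 22373 genes with a difference or a bound, of which 6.70% were past 2-fold in the higher and 3.04% in the lower direction. Of 18 other genes of breakdown and interconversion, 15 had a difference, of which 1 was at least 2-fold higher and 0 were lower, with a median of -0.22. The gene past 2-fold was *Nt5c1a*, a cytosolic nucleotidase that acts on AMP, which read 33.0 and 57.4, a log2 difference of 1.08 that stayed past 2-fold in 6 of 10 other settings. The list also took in nucleotidase genes that are not particular to purines, among them *Nt5c3* and *Nt5c3b*. *Nt5c3*, the brightest probe of the list, read 12933 in *Pnpla1*+/+ skin and 7137 in the knockout, a log2 difference of -0.58. Of 13 genes that build purines de novo, 0 differed by 2-fold, 11 were below 0, and the values ran from -0.61 to 0.05 with a median of -0.23. With spike-in centring the de novo median was -0.66 and *Prps2*, a ribose-phosphate pyrophosphokinase gene, was past 2-fold at -1.04. In the list of breakdown and interconversion 2 genes, *Nt5c3* and *Nt5c3b*, were then past 2-fold lower and 0 higher. Under that setting 826 of all genes were at least 2-fold higher and 2178 lower, against 1499 and 681 under the main scaling. *Impdh2*, the inosine monophosphate dehydrogenase on the way to guanine nucleotides, had the brightest probe of the de novo list. That probe read 24920 and 18019, a log2 difference of -0.19.

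Among 10 salvage kinases, 1 was at least 2-fold higher and 0 were lower (6.70% and 3.04% of all genes), with a median of -0.13. It was *Ak4*, an adenylate kinase of the mitochondrial matrix, which read 1925 in *Pnpla1*+/+ skin and 4543 in the knockout, 2.87-fold.

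Enzymes that share the cofactor of XDH were viewed next. Of 10 genes for molybdenum cofactor synthesis and its other users, 9 had a value, 1 was at least 2-fold higher and 0 were lower (6.70% and 3.04% of all genes), with a median of 0.32 that became -0.11 with spike-in centring. The gene past 2-fold was *Aox4*, an aldehyde oxidase, which read 2847 and 4991, a log2 difference of 1.09 that stayed past 2-fold in 8 of 10 other settings. *Mocos*, which adds the sulfur that the cofactor of XDH needs, was named after its value was seen and read 2395 and 3280, a log2 difference of 0.74. *Mocs2*, a cofactor synthesis gene and the brightest probe of the list, read 7698 and 5773, a log2 difference of -0.13. *Aox2* was not above background on either array.

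UOX works inside the peroxisome and releases hydrogen peroxide there. Of 26 genes for peroxisomal oxidases, catalase and peroxins, 23 had a difference, 0 differed by 2-fold in either direction (6.70% of all genes were higher and 3.04% lower), and the median was 0.05, which turned negative with median scaling, without scaling and with spike-in centring. *Cat*, the catalase that removes hydrogen peroxide, read 2303 in *Pnpla1*+/+ skin and 1234 in the knockout, a log2 difference of -0.62, the lowest of the list, which passed 2-fold at -1.05 with spike-in centring. *Hao1*, *Hao2* and *Dao*, oxidases of hydroxy acids and D-amino acids, were not above background on either array.

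Genes for the movement of urate across membranes differed by less than 2-fold, as did most of all genes (6.70% were higher and 3.04% lower). Of 11 genes for urate transport, 6 were measured, with values from -0.35 to 0.50. The lowest, and the only value below 0, was that of *Pdzk1*, a scaffold protein gene and not a carrier. The median of the list was 0.44, which was 0.16 with no scaling and 0.01 with spike-in centring. *Abcg2*, an exporter of urate, had the brightest probe and read 4682 and 5327, a log2 difference of 0.47. *Slc2a9*, a urate carrier of liver and kidney, read 165 and 190, a log2 difference of 0.48. *Slc22a12*, *Slc17a1*, *Slc17a3*, *Slc17a4* and *Slc22a8*, other genes of the list, were not above background on either array.

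Genes that handle purine nucleosides outside the cell and carry them across the membrane were read last among the pathway lists. Of 20 genes for nucleoside transporters, adenosine receptors and ectonucleotidases, 5 were at least 2-fold higher in *Pnpla1*-/- skin and 0 were lower, beside 6.70% and 3.04% of all genes. *Slc28a2*, which carries purine nucleosides into cells with sodium, read 41.9 and 217, a log2 difference of 2.65 or 6.29-fold, which became 1.48 with normexp background correction. *Slc28a3*, a carrier of the same family for both purine and pyrimidine nucleosides, read 1472 and 5509, or 4.55-fold. *Entpd3*, which cleaves nucleotides outside the cell, read 176 and 544, or 3.76-fold. The adenosine receptor gene *Adora2b* read 757 and 1497, or 2.41-fold, and stayed past 2-fold in 8 of 10 other settings. *Adora1*, also an adenosine receptor gene, was above background in the knockout only, with 7.38 and 46.4, at least 2.36-fold higher, and stayed past 2-fold in 5 of 9 other settings that gave it a value. With no scaling and with spike-in centring, *Adora1* (0.96 and 0.81) and *Adora2b* (0.98 and 0.84) both lay below 2-fold on the log2 scale. *Slc29a1*, an equilibrative nucleoside carrier and the brightest probe of the list, read 5037 and 3099, a log2 difference of -0.42. The median of the list was 0.18, and -0.10 without scaling and -0.25 with spike-in centring.

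**Figure D4:**
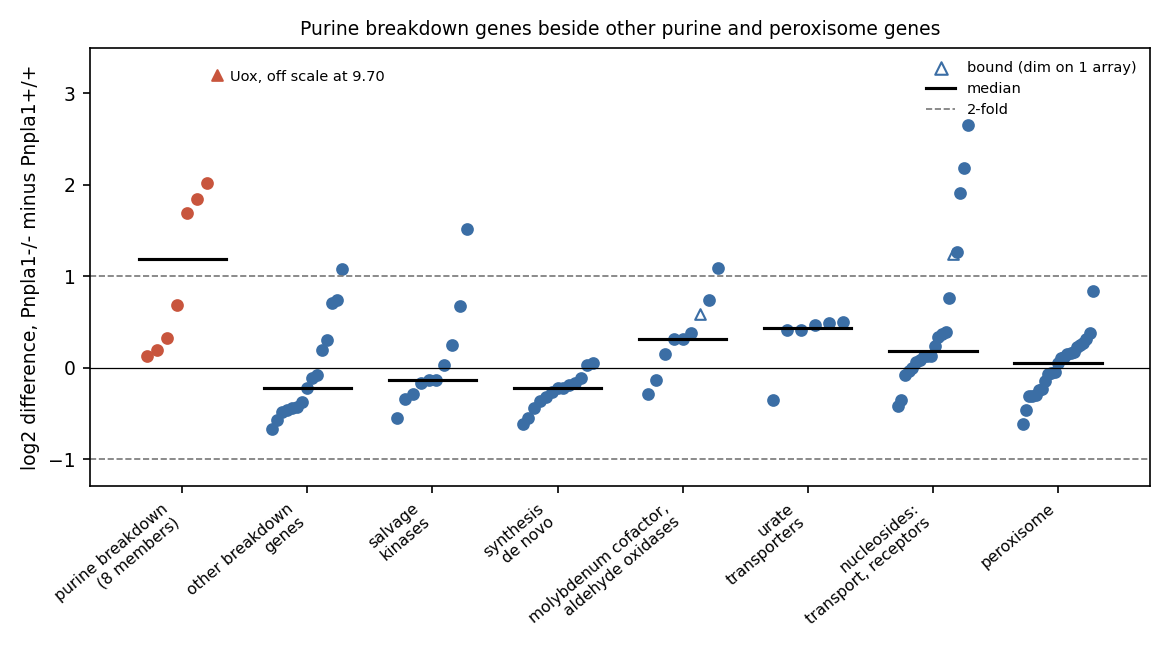
Log2 difference, *Pnpla1*-/- minus *Pnpla1*+/+, of each measured gene in the 8 purine breakdown genes (red) and in 7 other lists (blue); triangles are bounds, horizontal bars are medians, and *Uox* is off the scale. *Slc28a2* at 2.65 and *Slc28a3* at 2.19 are the highest blue points under this scaling (1.48 and 2.14 with normexp), and every gene of de novo synthesis lies within the 2-fold lines, which with spike-in centring did not hold for *Prps2*.

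The measured genes around *Uox* on chromosome 3 had smaller differences. Within 500 kb of the *Uox* probes in mm9 lay probes of 15 other genes or transcripts, of which 11 had a difference, 1 was past 2-fold in each direction, with a median of -0.03. Over all genes these shares were 6.70% higher and 3.04% lower. *Dnase2b*, the nearest measured gene 48.5 kb away, read 52.7 in *Pnpla1*+/+ skin and 63.5 in the knockout, a log2 difference of 0.55. On the other side, *4930503B20Rik* at 21.2 kb read 6.06 and 5.47 and was not above background on either array. *Prkacb*, a catalytic subunit of protein kinase A at 100 kb, read 9303 and 6698, a log2 difference of -0.19. *Mcoln2*, an ion channel gene of endosomes and lysosomes 434 kb away, read 474 and 1319, a log2 difference of 1.76. *Lpar3*, a receptor gene for lysophosphatidic acid 344 kb away, read 314 and 110, a log2 difference of -1.23. *Gng5*, *Rpf1*, *Ctbs*, *Spata1*, *Ssx2ip*, *Ttll7* and *Mcoln3* ran from -0.87 to 0.25.

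**Figure D5:**
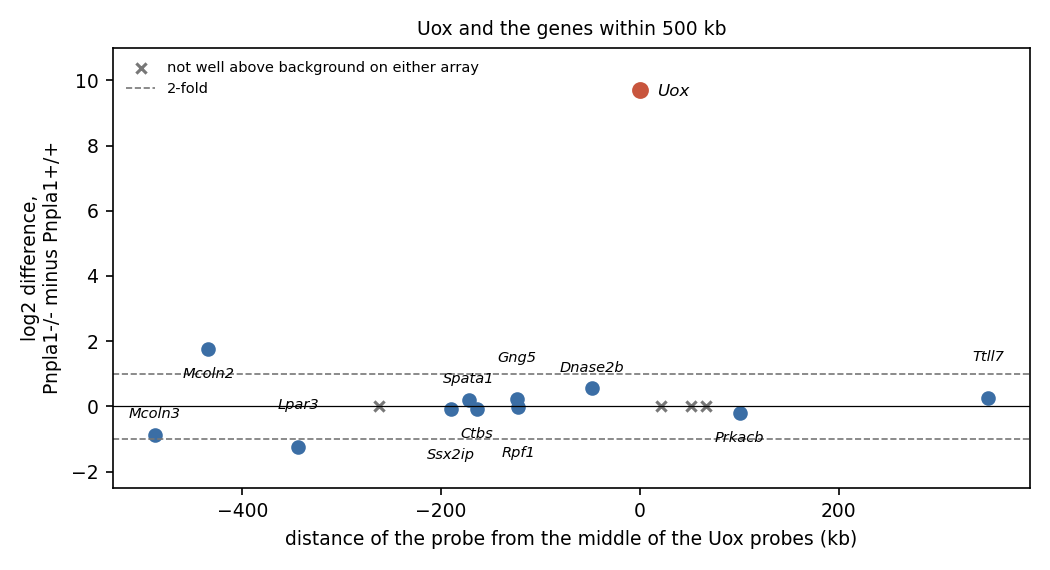
Log2 difference, *Pnpla1*-/- minus *Pnpla1*+/+, of *Uox* (red) and of the genes within 500 kb (blue) against the distance of the probe from the *Uox* probes in kb; crosses, drawn at 0, had no value because they were not above background on either array. *Uox* stands at 9.70, and its measured neighbours lie between -1.23 and 1.76.

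The genes whose pair of signals lay nearest that of *Uox* probe 1, by Euclidean distance in log2 over the 2 arrays among 17837 named genes, were *Sprr2j-ps* (distance 1.15), *Defb6* (1.20), *Saa3* (1.24), *Gm21944* (1.28) and *Lce3a* (1.35). *Defb6*, a beta-defensin gene, read 65.6 in *Pnpla1*+/+ skin and 15089 in the knockout. *Saa3*, a serum amyloid A gene, read 66.7 and 14713. *Lce3a*, a late cornified envelope gene, read 57.7 and 40951. *Sprr2j-ps* read 61.9 and 29469, and *Gm21944* read 34.8 and 8641. With 2 arrays this says only that these probes were also dim in the wild type and bright in the knockout.

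Markers of the cells that the skin samples could hold were read beside these values. The tissue label was borne out by keratinocyte markers. The basal keratin gene *Krt5* read 220487 in *Pnpla1*+/+ and 210699 in *Pnpla1*-/- skin, and all 6 basal markers were above background, with a summed relative signal of 195 and 227. The suprabasal keratin gene *Krt10* read 277989 and 262540, and its 6 markers summed to 379 and 390. Within these lists the log2 differences of *Krt14* (1.35), *Dsc1* (1.20) and *Krt15* (-1.67) were past 2-fold, which did not hold for *Krt14* and *Dsc1* with spike-in centring or for *Dsc1* with no scaling.

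Since urate oxidase is best known from liver, hepatocyte markers were read too. Of 12 hepatocyte markers, 7 had a value, 0 were at least 2-fold higher in *Pnpla1*-/- skin and 1 was lower (6.70% and 3.04% of all genes), and their summed relative signal was 1.97 in *Pnpla1*+/+ and 1.52 in *Pnpla1*-/- skin. *Apoa1*, *Ttr*, *Fgb*, *Afp* and *Tdo2* were not above background on either array. *Alb*, the albumin gene, read 131 and 88.0. *Apoa2*, the brightest of these probes, read 2415 and 1905. *Cyp2e1*, a cytochrome P450 gene, read 1088 and 122, a log2 difference of -2.88. Most of the lower sum in the knockout came from *Cyp2e1*, whose relative signal was 0.516 and 0.0701, and 4 of the 7 measured markers were above 0. The part of these cells in the *Uox* difference was not tested.

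Some leukocyte and red cell markers had higher signals in the knockout, where 6.70% of all genes were at least 2-fold higher and 3.04% lower. Of 7 macrophage markers, 3 were at least 2-fold higher in *Pnpla1*-/- skin and 7 were above 0, with a summed relative signal of 13.7 and 24.2 and *Csf1r* as the brightest probe. The macrophage count of 3 was 1 with no scaling and 1 with spike-in centring. The lysozyme gene *Lyz2* had the largest macrophage value, 2.35 on the log2 scale. Of 7 neutrophil markers, 3 were at least 2-fold higher: *Cxcr2* with a bound of 5.90, *Mpo* with 4.35 and *Ltf* with 3.33. The others, *Ly6g*, *Camp*, *Elane* and *Csf3r*, ran from 0.04 to 0.42. The median of the neutrophil list was 0.42, which became -0.01 with spike-in centring. *Mpo*, the myeloperoxidase gene, read 32.3 and 541. The summed neutrophil signal was 44.8 and 47.9, most of it from *Csf3r*, at 0.04. Of 5 red cell markers on the array, 2 were at least 2-fold higher, with a sum of 39.6 and 70.8 led by the globin gene *Hba-a1* at 0.83, and the count of 2 was 1 with no scaling and 0 with spike-in centring. All macrophage and neutrophil markers other than *Cxcr2* in the wild type were above background on both arrays. Whether these cells had a part in the values of *Uox*, *Gda*, *Urah* or *Xdh* was not tested.

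Of the markers of other cell types measured on both arrays, 0 were past 2-fold, beside 6.70% of all genes higher and 3.04% lower. Of 8 T cell markers, 7 were measured on both arrays, and *Cd8a*, above background in the knockout only, had a bound of at least 1.67-fold higher. The T cell sums were 12.8 and 10.2, led by *Thy1*, whose relative signal was 10.9 and 7.93. Of the 8 T cell markers, 5 were above 0. Their median was 0.17, which became -0.11 with no scaling and -0.26 with spike-in centring. Of 6 endothelial markers, 0 differed by 2-fold, with sums of 4.65 and 5.95 led by *Kdr*. Of 6 adipocyte markers, 5 were measured and 0 differed by 2-fold, with sums of 68.4 and 77.4 led by *Fabp4*.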

How the data were processed

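Skin RNA of 6 newborn mice per genotype was pooled by the authors, labelled with Cy3 and hybridized to Agilent Mouse Gene Expression 4x44K v2 arrays, 1 array per genotype. The authors extracted spot values with Feature Extraction 11.5.1.1, per the labels, and the deposited values are background-subtracted linear intensities with flags per spot. A deposited table gives, as a ratio, the same intensity over 1 factor per array (2109 and 1734), and was used as an alternative. The text of the methods names a global normalization without its statistic.

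From the deposited intensities, the log2 signal of each spot was taken relative to the 75th percentile of its array, controls left out, in Python 3.11.15 (numpy 2.4.6, pandas 2.3.3). Spots flagged as outliers on either array were left out (138 and 82 flagged). Repeated spots of a probe were averaged as log2 values, and the brightest probe of a gene, by its mean over the arrays, stood for the gene. A probe well above background on 1 array only gives a bound: the bright signal over the background limit of the dim array (its lowest signal well above background) or over the dim signal where that is higher. Genes were counted at 2-fold. Of 30133 genes, 20678 were above background on both arrays, 1120 in the knockout only, 591 in the wild type only and 7744 on neither, and 1695 of the bounds were usable. Precision is limited by the number of arrays, and no p-value is given.

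Of 39429 probes, 31478 were named through a RefSeq table of GRCm38.p6 (27597 through an accession, 3488 through a current and 393 through an older symbol), and 7951 kept their name. Probe positions are those of the files, on mm9. Promoter sequences are from RefSeq on GRCm38.p6, and the 2 builds were not mixed. Of the 8 genes, 7 had a promoter entry.

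The members, the gene and marker lists and the motifs were chosen with earlier results of these data known. Genes named are the 8 members with all their probes, *Pnpla1*, the 5 nearest *Uox* in signal, and the genes within 500 kb. In each pathway list, every gene at least 2-fold changed and the brightest are named too. *Pnp2*, *Slc2a9*, *Pdzk1*, *Mocos*, *Cat*, the genes below background and single markers were named after their values were seen. As alternatives the arrays were scaled by the median, left unscaled, centred on 8 E1A spike-in probes, or treated with quantile normalization or normexp background correction (offset 50; limma 3.58.1, R 4.3.3). Others were the deposited ratios, outlier-flagged spots kept, the mean over probes of a gene, no filter on dim probes, only probes above background on both arrays, and thresholds of 1.5-fold and 3-fold. The computation was tested on simulated data. The values of some genes are not reported here.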

Additional observations from a re-analysis of the deposited data

How the results depend on the processing

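With 1 array per genotype, no setting gives a replicate check, leaving out a sample was not possible, and the slide could not be fitted as a block. No paired analysis was possible because each genotype had 1 array. The *Uox* difference of 9.70 became 9.42 with no scaling, 9.52 with quantile normalization, 8.15 with normexp background correction, 9.27 with spike-in centring and 8.77 as the mean over its probes. The *Pnpla1* difference of -2.07 became -2.35 with no scaling, -1.51 with normexp and -2.498 with spike-in centring. The count of genes at least 2-fold higher was 1499, against 998 with no scaling, 959 with normexp, 826 with spike-in centring, 3041 with no filter on dim probes, 3091 at 1.5-fold and 683 at 3-fold. The count of genes at least 2-fold lower was 681, against 1424, 321, 2178, 1.1e+03, 2092 and 228 under the same settings in that order (1.1e+03 is rounded). Among all genes past 2-fold, 68.8% were higher, against 41.2% with no scaling, 27.5% with spike-in centring and 58.8% with quantile normalization. The median of all genes moved by -0.28 with no scaling, by -0.44 with spike-in centring, in which the 8 probes differed by 0.43 on average (0.30 to 0.52), and by 0.10 with no filter on dim probes. The cause was not tested. Of the 8 purine genes, 4 were at least 2-fold higher under each alternative but the 1.5-fold threshold, which gave 5, and 0 were lower under any of the 12. For the other 22 results, genes named and list medians, 161 of 219 values stayed within the technical SD, 58 moved by more, and 0 that were past 2-fold changed sign. Weak signals limit the wild-type value of *Uox*, which lay near the background on both probes.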
